A study of Mus musculus with 6 samples.

Results

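The genes described are the matrix metalloproteinases (Mmp), the secreted proteases of the Adamts family and the tissue inhibitors of metalloproteinases (Timp), measured in sorted mouse prostate tumor cells after androgen withdrawal. Members were the transcript clusters, the array's gene-level units, that carry 1 gene symbol made of Mmp, Adamts or Timp followed by digits and an optional letter. Adamts-like genes (Adamtsl) were not taken. This gave 44 of 30063 genes tested, namely 22 Mmp, 18 Adamts and 4 Timp genes, each with a single cluster. Mmp15 and Adamts2 were not analysed here.

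RNA came from 3 MCRedAL tumor allografts of male mice treated with degarelix, which lowers androgen by blocking the GnRH receptor, and from 3 allografts of untreated male mice, labelled Intact. MCRedAL cells are mouse prostate cancer cells marked with the red fluorescent protein mCherry, so all samples are of 1 line. Degarelix was injected under the skin once tumors measured around 500 mm2, the unit the labels give, and the tag 7dPC in the titles of these samples is not explained in the labels. Cells of both groups were sorted for mCherry and against CD45, CD11b and the macrophage antigen encoded by Adgre1, and each tumor was read on 1 Affymetrix MTA 1.0 array. The 3 arrays per group limit the precision. The labels call the samples biological replicates.

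Metalloproteinases use a zinc ion to cut proteins of the extracellular matrix and of the cell surface, and most are made as inactive precursors. Matrilysin, encoded by Mmp7, is made chiefly by glandular epithelial cells, whereas gelatinase A (Mmp2) and the membrane-anchored protease of Mmp14 are typical of fibroblasts and other stromal cells. On the cell surface the Mmp14 protein, with Timp2 as an adaptor, activates the precursor of gelatinase A. Adamts proteases carry thrombospondin-type repeats and cut proteoglycans, procollagens and other matrix proteins. Timp proteins bind and block the active site of metalloproteinases.

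The sequences upstream of 4 genes are shown because 10 Mmp genes, Mmp7 at one end, stand side by side on mouse chromosome 9, and because sites of the AP-1 and ETS transcription factors are a known feature of Mmp promoters. The 250 bases before the start of each gene are given 5′ to 3′ on the gene's strand, from RefSeq on GRCm38.p6. Capitals mark TGANTCA (AP-1) and AGGAAG (ETS), searched on both strands, with no match of one overlapping the other. Mmp7 and Mmp3 are members of the chromosome 9 row, and Mmp14 and Timp1 are members outside it.
Mmp7, chr9:7691840-7692089, plus strand: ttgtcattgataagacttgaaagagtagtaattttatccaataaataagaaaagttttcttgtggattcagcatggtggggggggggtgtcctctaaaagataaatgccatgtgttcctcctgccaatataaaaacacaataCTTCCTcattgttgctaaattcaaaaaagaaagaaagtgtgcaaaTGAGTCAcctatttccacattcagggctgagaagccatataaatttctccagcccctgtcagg
Mmp3, chr9:7445572-7445821, plus strand: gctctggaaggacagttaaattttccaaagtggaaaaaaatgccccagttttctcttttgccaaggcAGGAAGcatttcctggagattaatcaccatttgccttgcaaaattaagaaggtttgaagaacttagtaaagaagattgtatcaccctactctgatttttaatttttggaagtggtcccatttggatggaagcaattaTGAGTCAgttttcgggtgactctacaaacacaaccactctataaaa
Mmp14, chr14:54431348-54431597, plus strand: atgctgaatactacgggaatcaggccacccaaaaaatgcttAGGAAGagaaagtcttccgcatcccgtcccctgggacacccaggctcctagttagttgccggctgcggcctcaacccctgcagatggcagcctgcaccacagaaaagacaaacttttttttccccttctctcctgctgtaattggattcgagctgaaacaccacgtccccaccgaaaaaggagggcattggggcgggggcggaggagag
Timp1, chrX:20869916-20870165, plus strand: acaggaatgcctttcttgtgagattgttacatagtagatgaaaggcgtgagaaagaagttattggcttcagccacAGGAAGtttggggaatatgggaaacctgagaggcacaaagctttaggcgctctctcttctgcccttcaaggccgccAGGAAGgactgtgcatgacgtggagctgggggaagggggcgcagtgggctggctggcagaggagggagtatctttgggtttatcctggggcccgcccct

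The AP-1 letters lay at -63 to -57 from the start in Mmp7 and at -46 to -40 in Mmp3, and were not in these windows of Mmp14 and Timp1. Of 30 members in the promoter table, 7 held them (Mmp1a, Mmp1b, Mmp3, Mmp7, Mmp10, Mmp13 and Mmp20), all from the chromosome 9 row, against 6.84% of 27025 promoters of the same length. These neighbours resemble each other in sequence and are not independent cases. Members outside the 30, among them Mmp2, Mmp19 and Adamts5, were not searched. The ETS letters stood in 13 of the 30, against 29.1% of all promoters, and ATCAAAG, the core of a TCF site, in 0 of the 30, against 3.22%. A match describes letters and is no evidence of binding.

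The members that changed after degarelix all rose. With limma and an adjusted p below 0.05 as the threshold, 11 of 44 members were higher (25.0%), where 4.2% of all genes tested were. None was lower, where 7.53% of all genes were. At an unadjusted limma p under 0.05, 1 member, Mmp12, was lower, where 4505 of the 30063 genes were. The 11 were Mmp2, Mmp7, Mmp11, Mmp14, Mmp19, Mmp23, Adamts5 and all 4 Timp genes. The values of 13 members did not overlap between the groups, each higher in degarelix tumors, where 14.8% of all genes showed this. The other members of that kind were Adamts7 and Mmp21, at 0.22 and 0.07. The median change, degarelix minus untreated on the log2 scale, was 0.15 over the 44 members and 0.04 over all genes. It was 0.16 over Mmp, 0.12 over Adamts and 0.54 over Timp genes.

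**Figure D1:**
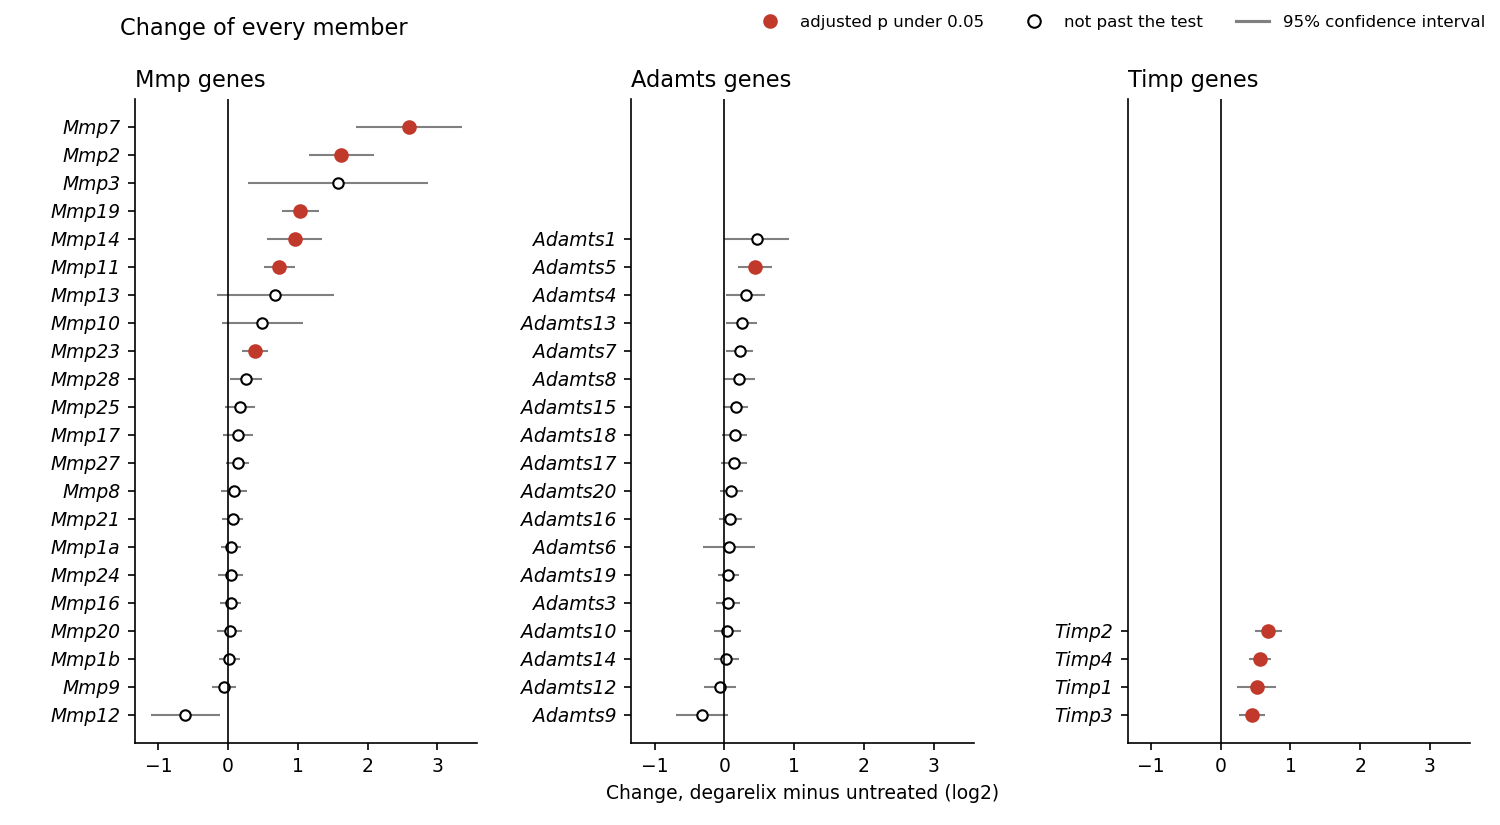
Change of each of the 44 members (x axis, log2, degarelix minus untreated), Mmp, Adamts and Timp genes in separate panels. Points are limma estimates from 3 arrays per group with 95% confidence intervals, filled where the adjusted p was under 0.05. The filled points are 11, all right of 0, with Mmp7 farthest at 2.59.

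Levels must be read against the array's background. The brightest of 23 background probe sets reached 6.93, the limit used here, and the median of their values was 3.26. Values between that median and the limit lay above the middle of the background but not above its brightest probe set. Of the 44 members, 9 had a mean over the 6 arrays above the limit, as did 30.5% of all genes. The 9 were Mmp2, Mmp3, Mmp7, Mmp14, Adamts1, Adamts4, Timp1, Timp2 and Timp3. Mmp7 and Mmp3 are among them through their degarelix values, since their untreated means of 5.93 and 6.17 lay below the limit, so no count over the 9 is read as a result. Of the 33 members that did not pass the test 30 had a mean at or below this level, and small changes of such dim genes could have been missed.

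**Figure D2:**
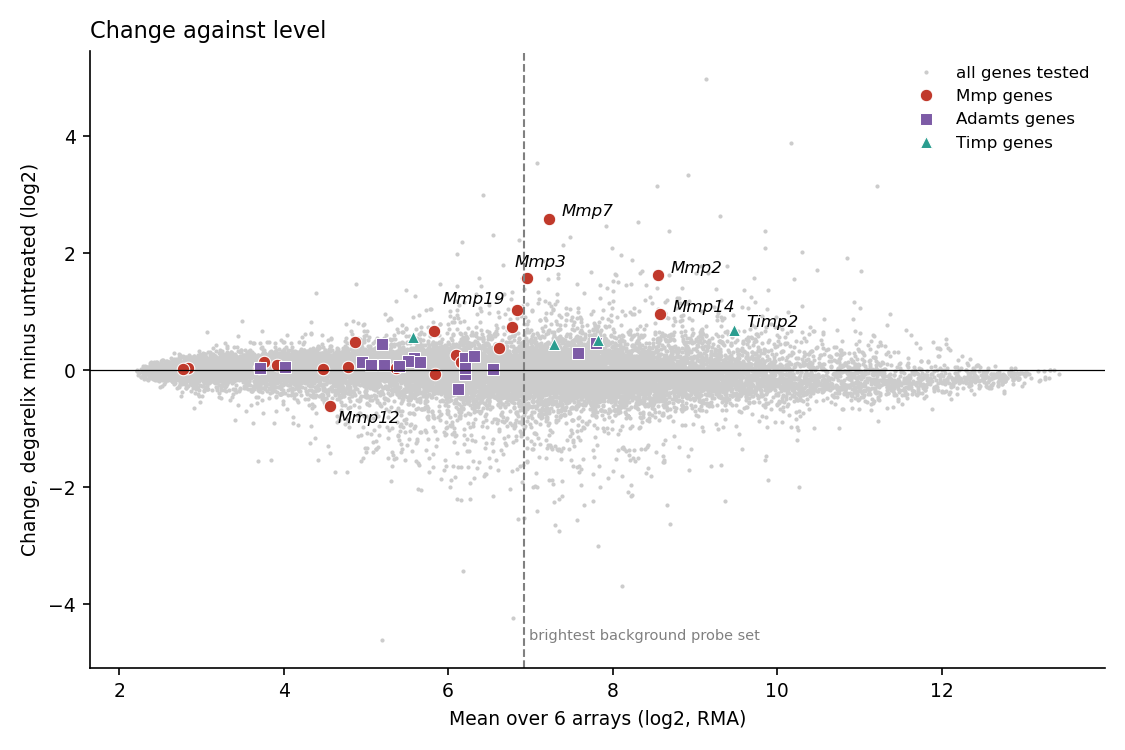
Change (y axis, log2, degarelix minus untreated) against the mean over 6 arrays (x axis, log2) for 30063 genes in grey, with Mmp, Adamts and Timp genes in colour. The dashed line is the brightest background probe set at 6.93. Mmp7 and Mmp3 lie right of it through their degarelix values.

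The sorted cells were checked against markers before the members were compared. Keratin 8 (Krt8) ranged from 11.83 to 12.09 in degarelix and from 11.25 to 11.90 in untreated tumors. Epcam and Cdh1, which mark epithelium, lay below the brightest background probe set on all arrays, as did 7 of the 10 epithelial markers measured. Col1a1, a gene of collagen-producing cells, ranged from 9.27 to 9.94 in degarelix and from 9.32 to 9.59 in untreated tumors, so transcripts typical of stroma were present in both groups. Ptprc, Itgam and Adgre1, which encode the antigens sorted against, lay below the background limit everywhere. Untreated replicate 1 stood apart in macrophage markers: the log2 of the summed level of 12 markers was 9.55 to 9.61 in degarelix tumors, against 10.94, 9.47 and 10.09 in untreated replicates 1, 2 and 3. Without untreated replicate 1, 12 members were higher, the 11 above and Adamts1. With that omission 1447 of all 30063 genes were higher, against 1264 with all samples. Summed endothelial markers were at 9.49 to 9.52 in degarelix and 9.59 to 9.92 in untreated tumors, and those of smooth muscle and pericytes at 10.38 to 10.56 in degarelix and 10.59 to 10.76 in untreated tumors. All 10 neutrophil and 9 lymphocyte markers measured were below the background limit on every array. In sorted bulk samples, fewer cells of a type and less RNA per cell cannot be told apart.

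Mmp7, the matrilysin gene, had the largest change among the 44 members. It was at 8.35, 8.58 and 8.65 in degarelix replicates 1, 2 and 3, against 5.23, 6.82 and 5.75 in untreated replicates 1, 2 and 3 (log2). The degarelix values lay close together and far above those of untreated tumors, which spread widely and were all below the background limit. The means were 8.53 ± 0.16 in degarelix and 5.93 ± 0.81 in untreated tumors (SD, n = 3 each), a 6.03-fold difference (log2 change 2.59, SE 0.33, 95% interval 1.83 to 3.35, limma adjusted p = 0.00196). Since the untreated level was within the background range, the size of the rise is uncertain. Leaving out any 1 sample gave changes of 2.24 to 3.04, all past the test.

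Mmp2, the gelatinase A gene, also rose, with all 6 values above the background limit. It was at 9.34, 8.97 and 9.78 in degarelix replicates 1, 2 and 3, against 7.45, 7.76 and 8.0 in untreated replicates 1, 2 and 3. The groups did not overlap, and the highest value of each group was in replicate 3. The means were 9.36 ± 0.41 in degarelix and 7.74 ± 0.28 in untreated tumors, a 3.08-fold difference (log2 change 1.62, SE 0.20, limma adjusted p = 0.00175).

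Mmp14, the gene of the membrane-anchored activator of gelatinase A, was at 8.98, 8.72 and 9.48 in degarelix tumors, against 8.07, 8.0 and 8.23 in untreated tumors. As with Mmp2, replicate 3 was highest in each group, and no values overlapped. The difference was 1.94-fold (log2 change 0.96, SE 0.17, limma adjusted p = 0.00983). Without degarelix replicate 3 the change was 0.74 for Mmp14 and 1.42 for Mmp2 (adjusted p = 0.0112 and 0.00793). Against a 1.2-fold change in place of 0, Mmp14 did not pass (adjusted p = 0.0624).

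Whether Mmp7 changed by more than Mmp2 and Mmp14 was tested on differences within each array, which compare changes and not levels. Mmp7 minus Mmp2 averaged -0.83 ± 0.40 in degarelix and -1.81 ± 0.75 in untreated tumors (SD, n = 3 each). The change of Mmp7 was 0.97 above that of Mmp2 in these values, and the groups overlapped (exact permutation test, two-sided p = 0.3). Mmp7 minus Mmp14 averaged -0.53 ± 0.36 in degarelix and -2.17 ± 0.88 in untreated tumors (SD, n = 3 each), a difference of 1.64 without overlap (exact permutation p = 0.1). Adjusted over these 2 pairs the exact permutation p-values were 0.3 and 0.2. With 3 arrays against 3 the smallest p that this exact permutation test can give is 0.1, so it could not reach 0.05 whatever the values, and it shows neither a difference nor its absence. Both differences rest on untreated Mmp7 values within the background range, so 0.97 and 1.64 are uncertain in size.

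The 3 genes differed in which untreated array was highest, but not in which degarelix array was. Untreated replicate 2 held the highest untreated value of Mmp7, at 6.82, while untreated replicate 3 held that of Mmp2 and Mmp14. In degarelix tumors Mmp7 ranged over 8.35 to 8.65, Mmp2 over 8.97 to 9.78 and Mmp14 over 8.72 to 9.48. All 3 were highest in degarelix replicate 3, which held the highest degarelix value of 7 of the 11 members past the test. Over all 44 members that array held the highest degarelix value in 17 and the lowest in 22. Among fibroblast markers, the proteoglycan gene Dcn was at 8.71, 8.55 and 9.43 in degarelix tumors, against 6.94, 7.35 and 8.02 in untreated tumors, so it too was highest in replicate 3 of each group. Lum, of the same proteoglycan family, was at 6.16, 6.15 and 7.76 in degarelix tumors, against 5.17, 5.34 and 6.01 in untreated tumors. The Lum change of 1.19 did not pass (limma adjusted p = 0.105) and was 0.65 without degarelix replicate 3. Postn, the periostin gene, was at 9.01, 8.71 and 9.41 in degarelix tumors, against 9.69, 9.46 and 10.02 in untreated tumors. It was lower without overlap, opposite to Dcn and Lum, though its change of -0.68 missed the threshold (limma adjusted p = 0.0516) and passed without degarelix replicate 3 or untreated replicate 2 (0.0283 and 0.0426). Of 16 fibroblast markers measured, Dcn and the fibulin gene Fbln1 rose by 1.46 and 1.07, the collagen gene Col6a3 was lower at -0.41 (limma adjusted p = 0.0147, 0.000606 and 0.0211), and 13 did not pass the test. That is 12.5% higher and 6.25% lower, against 4.2% and 7.53% of all genes. The log2 of their summed level was 13.31 to 13.56 in degarelix and 13.19 to 13.39 in untreated tumors. The part of these cells or transcripts in the Mmp values was not tested.

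Epithelial genes differed in their untreated order, in examples chosen after their values were seen. Elf3 and Krt8 had the order of Mmp7 and Krt19 had the reverse. Elf3, an ETS factor of epithelia, was at 8.90, 8.97 and 9.11 in degarelix tumors, against 7.42, 8.18 and 7.80 in untreated tumors. Krt8 was at 11.83, 11.86 and 12.09 in degarelix tumors, against 11.25, 11.90 and 11.49 in untreated tumors, a change of 0.38 that missed the threshold (limma adjusted p = 0.162). Krt19 was at 9.17, 9.25 and 9.10 in degarelix tumors, against 7.54, 7.04 and 7.30 in untreated tumors, so untreated replicate 2, the highest for Mmp7, was its lowest. Of 10 epithelial markers measured, the keratin genes Krt19 and Krt14 rose, by 1.88 and 0.38 (20.0%, against 4.2% of all genes), with Krt14 below the background limit on every array. The log2 of the summed level of the 10 markers was 12.46 to 12.61 in degarelix and 11.77 to 12.48 in untreated tumors. Their part in the Mmp7 value was not tested. With 3 arrays per group these shared orders are a description only.

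**Figure D3:**
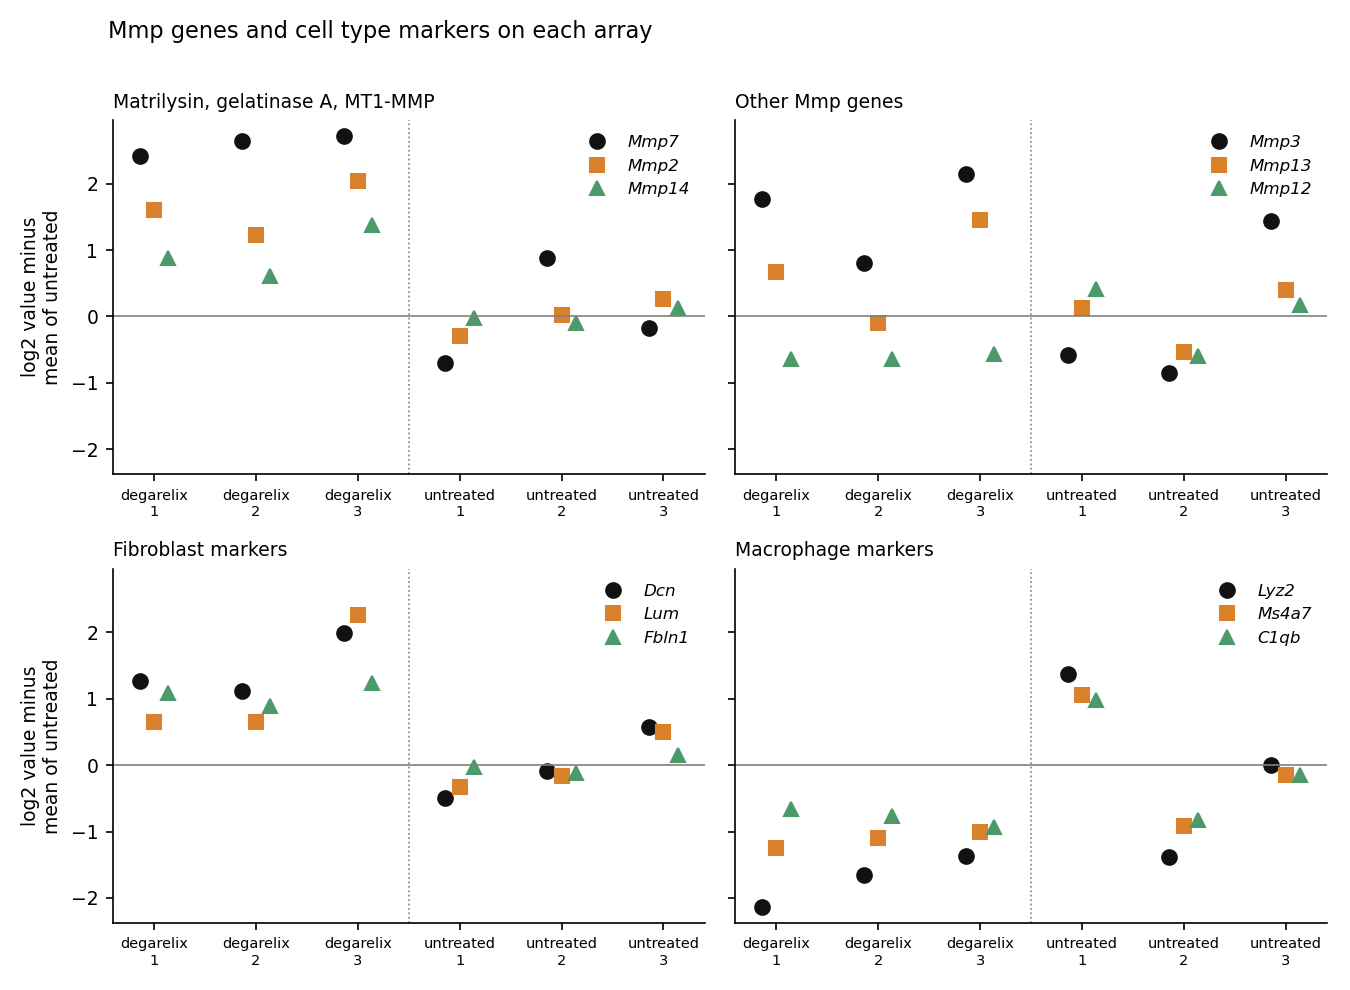
Values on each of the 6 arrays (x axis) as log2 minus the mean of the untreated arrays (y axis), for Mmp7, Mmp2 and Mmp14, for Mmp3, Mmp13 and Mmp12, and for fibroblast and macrophage markers. Among the degarelix arrays, all Mmp genes and fibroblast markers shown are highest in degarelix replicate 3, as are Lyz2 and Ms4a7. Among all arrays, Lyz2, Ms4a7 and C1qb are highest in untreated replicate 1.

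Mmp19, Mmp11 and Mmp23 rose as well. Mmp19, which encodes a secreted protease that cuts basement membrane proteins, was at 7.47, 7.07 and 7.51 in degarelix tumors, against 6.31, 6.26 and 6.37 in untreated tumors. Its untreated values were all below the background limit and its degarelix values all above it, with a change of 1.04 (SE 0.12, limma adjusted p = 0.00096). Mmp11, the stromelysin-3 gene, whose protein is activated inside the cell by furin, was at 7.23, 6.98 and 7.22 in degarelix tumors, against 6.55, 6.30 and 6.36 in untreated tumors. The groups were again separate, by 0.74 on average (SE 0.10, limma adjusted p = 0.00237). Mmp23, which encodes a membrane protease without a hemopexin domain, was at 6.85, 6.69 and 6.90 in degarelix tumors, against 6.43, 6.34 and 6.51 in untreated tumors. All of these lay at or below the background limit, and its change of 0.39 (SE 0.08, limma adjusted p = 0.0201) lost its call with median centring (adjusted p = 0.0728), without degarelix replicate 1 (0.0788) or without untreated replicate 2 (0.0756).

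The 4 Timp genes rose by similar amounts, between 0.45 and 0.68. Timp2, the inhibitor that also serves Mmp14 as adaptor, was at 9.87, 9.82 and 9.76 in degarelix tumors, against 9.06, 9.05 and 9.29 in untreated tumors. It changed by 0.68 (SE 0.08, limma adjusted p = 0.00156), with no sample standing apart. Mmp2, Mmp14 and Timp2, whose proteins act together in the activation of gelatinase A, were thus all higher.

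Timp3, whose protein binds to the matrix and also blocks Adamts proteases, was at 7.65, 7.38 and 7.49 in degarelix tumors, against 7.05, 7.08 and 7.05 in untreated tumors (change 0.45, SE 0.08, limma adjusted p = 0.0107). The untreated values hardly differed from each other. Timp3 lies within the synapsin gene Syn3 in RefSeq, and Syn3, at background level on every array, was higher too, at 0.52 (SE 0.11, limma adjusted p = 0.0173). Whether the probes of one read the other was not tested.

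Timp4, at 5.82, 5.88 and 5.87 in degarelix tumors, against 5.36, 5.23 and 5.28 in untreated tumors, was below the background limit throughout, yet it varied little (change 0.57, SE 0.07, limma adjusted p = 0.00147). Timp1, an inhibitor that many cells make in inflammation, was at 8.11, 7.90 and 8.24 in degarelix tumors, against 7.33, 7.65 and 7.72 in untreated tumors. Its groups did not overlap, with a change of 0.51 (SE 0.12, limma adjusted p = 0.0318). The Timp1 call was lost with median centring (adjusted p = 0.102) and without degarelix replicate 1 (0.113), degarelix replicate 3 (0.0759) or untreated replicate 2 (0.0576). Timp4 and Timp1 lie within the synapsin genes Syn2 and Syn1, whose changes of 0.15 and 0.10 did not pass the test.

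**Figure D4:**
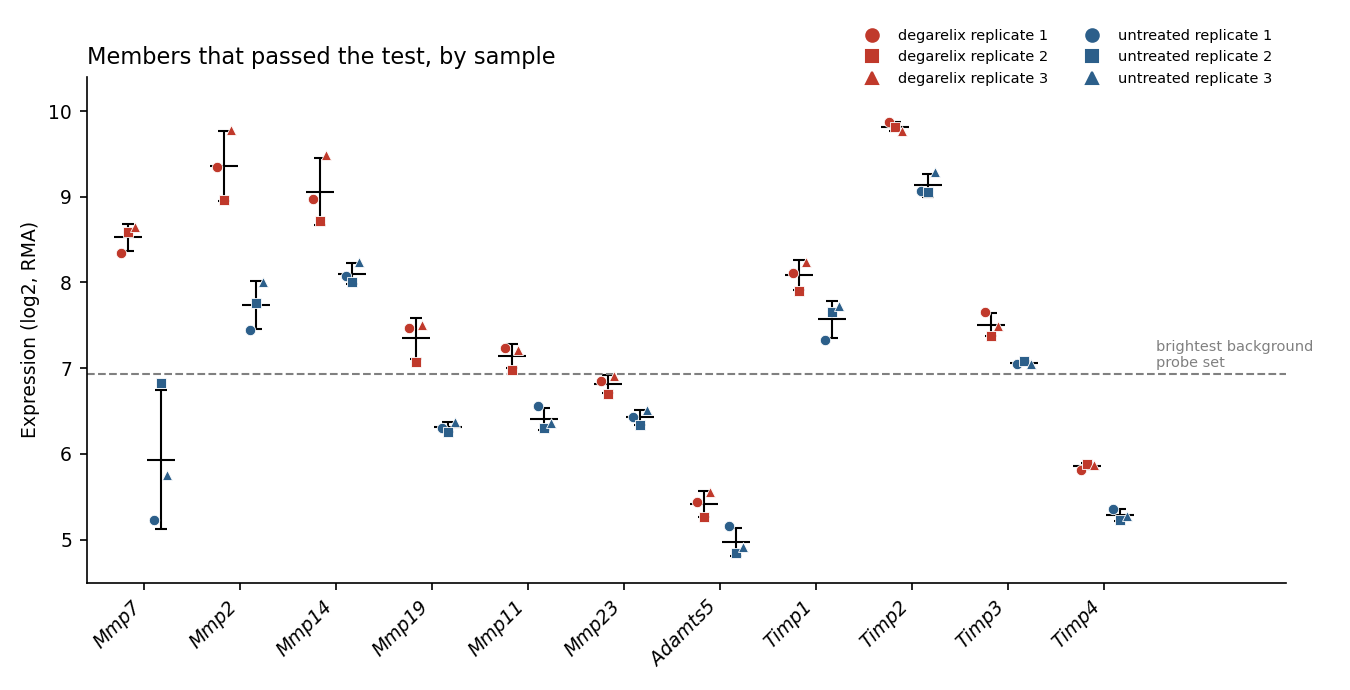
Log2 expression (y axis) of the 11 members that passed the test, with degarelix samples in red left of untreated samples in blue and a symbol per replicate. Horizontal bars are means and error bars SD over 3 samples, and the dashed line is the brightest background probe set at 6.93. The untreated values of Mmp7, between 5.23 and 6.82, spread more than those of the other 10 genes.

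Of the 18 Adamts genes, Adamts5 alone passed the test (5.56%, near the 4.2% of all genes that were higher). Adamts5, an aggrecan- and versican-cleaving protease gene, was at 5.44, 5.26 and 5.56 in degarelix tumors, against 5.16, 4.85 and 4.92 in untreated tumors. All values were below the background limit and the change of 0.44 was small (SE 0.11, limma adjusted p = 0.0311). The call was lost under all 3 other scalings (adjusted p = 0.0676 to 0.106) and without degarelix replicate 1 (0.109), degarelix replicate 3 (0.0705), untreated replicate 2 (0.103) or untreated replicate 3 (0.102).

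The Adamts genes with a mean above background, Adamts1 and Adamts4, encode proteoglycan-cleaving proteases too. Adamts1 was at 8.02, 7.92 and 8.15 in degarelix tumors, against 8.03, 7.07 and 7.60 in untreated tumors. Untreated replicate 1 reached the degarelix level, and the change of 0.46 did not pass (SE 0.21, limma adjusted p = 0.197), while leaving out single samples gave 0.21 (without untreated replicate 2, adjusted p = 0.435) to 0.69 (without untreated replicate 1, adjusted p = 0.0213, the 1 omission under which it passed). Adamts4 was at 7.72, 7.52 and 7.95 in degarelix tumors, against 7.58, 7.27 and 7.42 in untreated tumors (change 0.30, SE 0.12, limma adjusted p = 0.154, and 0.20 without degarelix replicate 3). The 17 Adamts genes that did not pass had changes between -0.32 (Adamts9) and 0.46. Of these 17, 15 were above 0, where 17629 of the 30063 genes tested were. Under the other 3 scalings 11 to 14 of the 17 were above 0. The procollagen N-propeptidase genes Adamts3 and Adamts14 were at 0.05 and 0.03, and Adamts13, whose protein cuts von Willebrand factor, at 0.25 (limma adjusted p = 0.146).

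Mmp3, the stromelysin-1 gene, had the third largest change among the members but varied too much between tumors to pass. It was at 7.95, 6.98 and 8.31 in degarelix tumors, against 5.60, 5.32 and 7.61 in untreated tumors. Untreated replicate 3 lay above degarelix replicate 2, and the change of 1.57 had an SE of 0.57 (limma adjusted p = 0.117). Leaving out single samples gave 1.15 (without untreated replicate 2, adjusted p = 0.295) to 2.29 (without untreated replicate 3, adjusted p = 0.00751), and it passed in the last of these only. Mmp13, a collagenase gene, was at 6.16, 5.39 and 6.94 in degarelix tumors, against 5.62, 4.95 and 5.89 in untreated tumors (change 0.68, SE 0.37, limma adjusted p = 0.278). Its change was 0.29 without degarelix replicate 3, 0.41 without untreated replicate 2 and 1.07 without degarelix replicate 2, and it passed under no single omission. Mmp10, the stromelysin-2 gene, was at 5.12, 4.63 and 5.59 in degarelix tumors, against 4.32, 4.47 and 5.08 in untreated tumors (change 0.49, SE 0.25, limma adjusted p = 0.262). It was 0.25 without degarelix replicate 3 and 0.73 without degarelix replicate 2, again without passing. In these 3 genes, as in Mmp2, Mmp14, Dcn and Lum, degarelix replicate 3 and untreated replicate 3 were the highest of their groups, and degarelix replicate 2 was the lowest.

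Mmp12, the macrophage elastase gene, had the lowest change, -0.61 (SE 0.22, limma adjusted p = 0.112). It was at 4.22, 4.23 and 4.31 in degarelix tumors, against 5.29, 4.28 and 5.04 in untreated tumors, below the background limit on every array. Untreated replicates 1 and 3 were high and untreated replicate 2 was not. The macrophage lysozyme gene Lyz2 had the same high untreated samples, at 5.51, 5.98 and 6.27 in degarelix tumors, against 9.02, 6.26 and 7.65 in untreated tumors. Of 12 macrophage and monocyte markers 11 had changes below 0 (median -0.42), where 12434 of the 30063 genes did. In limma 0 of the markers passed the test, against 4.2% of all genes higher and 7.53% lower. At an unadjusted limma p under 0.05, 3 markers were lower, where 4505 of the 30063 genes were. The part of these markers in the Mmp12 value was not tested. Leaving out single samples gave -0.40 (without untreated replicate 1, adjusted p = 0.197) to -0.91 (without untreated replicate 2, limma adjusted p = 0.00181), and it passed in the last of these only.

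Of the 10 genes in the chromosome 9 row, which lies between Dcun1d5 and Tmem123, Mmp7 was the 1 that passed the test. Over all genes 4.2% were higher and 7.53% lower. In the row only Mmp7 and Mmp3 had a mean above the background limit, so the count is not read as a result about the row. The collagenase genes Mmp1a, Mmp1b and Mmp8 and the genes Mmp20 and Mmp27 had changes between 0.02 and 0.14, some of which turned below 0 under another scaling. Mmp1a and Mmp1b are related in sequence, and whether the probes of one read the other was not tested, so each is uncertain as a single gene. Among the genes elsewhere, the gelatinase B gene Mmp9, typical of neutrophils and macrophages, was at 5.81 ± 0.04 in degarelix and 5.87 ± 0.10 in untreated tumors (SD, n = 3 each), within the background range (change -0.06, limma adjusted p = 0.652). The membrane-type genes other than Mmp14, namely Mmp16, Mmp17, Mmp24 and Mmp25, had changes of 0.04 to 0.17 and were within it too, as was Mmp28, the epilysin gene, at 0.26 (limma adjusted p = 0.138).

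Genes that act on or beside metalloproteinases were listed as groups, chosen with earlier results of these data known. Of 22 measured activators, inhibitors and surface partners, 6 rose and 1 was lower (27.3% and 4.55%, against 4.2% and 7.53% of all genes), with a median of 0.19. Cldn1, a claudin that can bring gelatinase A precursor and Mmp14 together, rose by 1.34 (SE 0.15), Cd44, a surface anchor of several Mmp proteins, by 0.85 (SE 0.11), the convertase gene Pcsk5 by 0.45 and Reck, a membrane-bound inhibitor of Mmp proteins, by 0.39. Pcsk7, another convertase gene, was lower at -0.55 (SE 0.10). The limma adjusted p of these 5 was at most 0.0191. Pcsk5 and Reck lay below the background limit on every array, and the mean of Cldn1 over all arrays was below it. Furin, the convertase that activates the Mmp14 and Mmp11 proteins, was at -0.20 (limma adjusted p = 0.187).

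Of 29 measured substrates 4 rose and 1 was lower (13.8% and 3.45%, against 4.2% and 7.53% of all genes; median 0.15). Igfbp5, a growth factor binding protein gene, rose by 1.72, Dcn by 1.46, Hbegf, a membrane-bound growth factor gene, by 0.68 and the proteoglycan gene Bgn by 0.63, while Vwf, a gene of endothelium and the substrate of Adamts13, was lower at -0.71 (limma adjusted p at most 0.0205 for these 5). Vcan, which encodes the Adamts substrate versican, was at -0.70 (limma adjusted p = 0.0524). Of 7 Adamts-like and related genes 3 rose (42.9%, against 4.2%), namely Thsd4 by 0.97, Adamtsl1 by 0.67 and Adamtsl4 by 0.41 (limma adjusted p at most 0.0102). The mean of Adamtsl1 over all arrays was below the background limit.

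Of 21 measured transcription factors known to act on Mmp genes 5 rose and none was lower (23.8% and 0, against 4.2% and 7.53% of all genes), with a median of 0.13. At an unadjusted limma p under 0.05, 0 were lower, where 4505 of the 30063 genes were. The 5 that rose were Elf3, 2.29-fold higher, Stat3 at 0.40 and the AP-1 genes Jun at 0.65, Fosb at 0.69 and Fos at 0.54 (limma adjusted p at most 0.0278). The other measured AP-1 genes Fosl1, Fosl2 and Jund, at 0.48, 0.07 and 0.13, did not pass (limma adjusted p = 0.265, 0.669 and 0.254). Nor did the other measured ETS genes Ets1, Ets2, Etv4, Etv5 and Elk1. Jun was at 10.46, 10.61 and 10.82 in degarelix tumors, against 9.80, 10.15 and 9.99 in untreated tumors, with no overlap.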

How the data were processed

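RNA of 3 degarelix and 3 untreated tumors was read on Affymetrix MTA 1.0 arrays. The deposited values are log2 expression per transcript cluster, made with Affymetrix Expression Console and RMA per the submitters' processing notes. The version of each was not given in the sources used here. By its design, RMA makes changes of dim genes smaller and hides any shift common to all probes of an array. Array medians over genes were 5.57 to 5.69.

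Symbols came from the platform annotation, updated with a RefSeq table of GRCm38.p6. The brightest cluster of each of 30063 genes entered limma 3.58.1 (R 4.3.3; lmFit, eBayes, two-sided, Benjamini-Hochberg over all genes, threshold 0.05), with no filter on dim genes. The fit was tested on simulated data. Differences between genes were tested by exact permutation (scipy 1.17.1).

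Members, classes, motifs and lists were chosen with earlier results of these data known. Named were Mmp7, Mmp2, Mmp14, the Timp genes, all members past the test, members above background, and up to 4 genes per list and direction by adjusted p. Other members, Fosb, Furin, Vcan, the AP-1 and ETS genes that did not pass and the marker genes given by sample were named after their values were seen. The alternatives were 3 scalings, gene-by-gene array weights, a variance trend with robust fitting, leaving out dim genes, averaging clusters and a replicate block. Leaving out each sample and a test against a 1.2-fold change were the others. The dim genes left out were those with a mean at or below the background median of 3.26, not the limit of 6.93. That kept 26358 genes, so it is no test of members between these levels.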

Additional observations from a re-analysis of the deposited data

How the results depend on the processing

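Mmp7, Mmp2, Mmp19, Mmp11, Timp2 and Timp4 were higher and past the test under all 15 alternatives, with changes of 2.24 to 3.04 for Mmp7 and 1.30 to 1.82 for Mmp2. Mmp14 ranged over 0.74 to 1.13 and missed the threshold in 1 of them, the test against a 1.2-fold change, with its value of 0.96 as before (adjusted p = 0.0624). The number of members higher was 8 to 12 on leaving out single samples, 8 with median centring, 10 with cyclic loess or quantile normalization, 6 against a 1.2-fold change and 21 with array weights. Of all 30063 genes, 629 to 1649 were higher on leaving out single samples, 1554 with cyclic loess and 1644 with quantile normalization. The genes higher were 241 against a 1.2-fold change and 5048 with array weights. The 10 gained with weights had unweighted changes of 0.14 to 0.46, and 1 of them, Adamts1, was above background; the weights were 0.39 for degarelix replicate 3 and 3.41 for degarelix replicate 2. Members lower numbered 0 to 1 on leaving out single samples, the 1 being Mmp12 without untreated replicate 2, an omission under which 1354 of 30063 genes were lower. No alternative reversed the change of any of the 11 members or of the 2 pairs. For the members, the variance trend, leaving out dim genes, averaging clusters, the replicate block and the 1.2-fold test cannot alter the change itself. Only the p-values can move under these. Among the other 33, changes of at most 0.09 in size turned sign in 7 members with median centring, 8 with cyclic loess and 4 with quantile normalization, and in up to 2 on leaving out a sample. Against a 1.2-fold change, the calls of Adamts5, Mmp23, Timp1 and Timp3 also ended. With median centring 699 of all genes were higher and 1926 lower, against 1264 and 2265. The change of Mmp7 exceeded that of Mmp2 by 0.74 to 1.40 and that of Mmp14 by 1.30 to 2.13 under 11 alternatives each. Among these, median centring, averaging clusters and the replicate block cannot alter a difference within arrays.

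With the replicate number as a replicate block, 13 members were higher, the 11 and Mmp3 and Mmp13 (limma adjusted p = 0.0224 and 0.0243). Of all 30063 genes 1435 were higher with this block, against 1264 without it. Residuals of same-numbered samples correlated at 0.163, 0.04 and 0.196, and each sample correlated best with its own number, a hint from the data only. Since 1 of the 3 was not over 0.1 and the labels give no shared source, the numbers were not used as pairs.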

Other observations

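Of 23 measured ADAM, astacin and related genes 3 rose and 2 were lower in limma at an adjusted p under 0.05 (13% and 8.7%, against 4.2% and 7.53% of all genes; median change 0.07). Mme, the gene of neprilysin, a membrane protease of prostate epithelium and many other cells, was at 9.50, 9.50 and 9.49 in degarelix tumors, against 8.03, 7.20 and 8.37 in untreated tumors. The degarelix values were nearly equal and the untreated values spread widely, with a change of 1.63 (SE 0.25, limma adjusted p = 0.00424). Bmp1, whose protein removes the C-terminal propeptide of procollagens, rose by 0.54 (SE 0.09), and Adam10, the sheddase gene that is close kin to Adam17, by 0.33 (limma adjusted p = 0.00667 and 0.0466). Adam17, which encodes the sheddase of tumor necrosis factor, was lower at -0.43 (SE 0.07), and the serine protease gene Htra1 at -0.40 (SE 0.07, limma adjusted p = 0.00684 and 0.0103).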
